A study of Mus musculus with 12 samples.

Results

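The transcripts of 10 genes were examined in mouse adult fibroblasts (MAFs), of 49315 genes counted in each library. They encode 8 secreted growth factors, namely hepatocyte growth factor (Hgf), the fibroblast growth factors Fgf2, Fgf7 and Fgf10, the vascular endothelial growth factors Vegfa, Vegfc and Vegfd, and the platelet-derived growth factor A chain (Pdgfa), together with the 2 PDGF receptors Pdgfra and Pdgfrb. The genes were taken by name, in a choice made with earlier results of these data known, and all 10 passed the filter on low counts. MAFs are primary cells, here grown at 3% O2 from ear tissue of adult mice, C57BL6/J females for WT and Bmal1-/- animals for KO, the latter lacking BMAL1, a transcription factor of the circadian clock. Within each genotype, the controls had sham irradiation, and the senescent cells had 20 Gy of X-rays followed by weeks of further culture. The time in culture of the controls is not given in the sources used here. Every culture was given 100 nM dexamethasone, a glucocorticoid that resets the clock, for 2 h and was collected 12 h later, so that no group is free of dexamethasone and a single time was sampled. There were 3 libraries of each of the 4 groups, numbered as replicates 1 to 3. The labels do not say whether replicates came from separate cultures or animals, so p-values measure the spread between these libraries, which may be technical.

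These growth factors act by binding receptor tyrosine kinases on the surface of nearby cells. HGF, FGF7 and FGF10 are made by mesenchymal cells and act on epithelia, through MET for HGF and through FGFR2 for the FGFs, whereas FGF2 acts on many cell types and leaves the cell without a signal peptide. VEGF-A drives growth of blood vessels through the receptor gene Kdr, VEGF-C and VEGF-D drive growth of lymphatic vessels through Flt4, and PDGFs act on fibroblasts and mural cells through PDGFRA and PDGFRB. Several of these factors are known parts of the secretome of senescent cells, and the comparison asks how the senescence response of their genes differs when BMAL1 is absent.

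Total counts were 23923030 to 31736083 per library. Levels below are CPM, counts per 1e+06 counts of the library, on totals scaled with TMM factors (trimmed mean of M-values) unless another scale is named. The detection floor, taken as 3 counts, lay at 0.0945 to 0.125 CPM. Arntl, the annotation's name for Bmal1, was at 31.5 ± 1.7 CPM among WT control libraries, 36.1 ± 1.1 CPM in WT senescent, 13.2 ± 1.8 CPM in KO control and 26.6 ± 1.1 CPM in KO senescent cells (SD, n = 3), so transcripts of the targeted gene were counted in every KO library. All 8 fibroblast markers examined exceeded 1 CPM in every library. Their summed level was 19668 to 20467 CPM among WT control and 9269 to 9623 CPM among WT senescent libraries. In KO libraries it was 24708 to 25988 CPM in control and 11376 to 11815 CPM in senescent cells. Single markers moved both ways, with WT group means going from 7323 to 1750 CPM for Col1a1 and from 28.9 to 299 CPM for Dcn. Of 10 chondrocyte markers, 8 to 9 exceeded 1 CPM in each library, and their summed level was 7389 to 9202 CPM among WT control libraries, 1955 to 2259 CPM in WT senescent, 4812 to 6676 CPM in KO control and 614 to 711 CPM in KO senescent cells. The part that these shifts in fibroblast and cartilage transcripts play in any result below was not tested. In bulk RNA, fewer cells of a type and less RNA per cell cannot be told apart. KO and WT counts also came in separate tables, so genotype and handling of the tables cannot be told apart in a direct comparison of KO with WT.

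In WT cells, 9 of the 10 genes rose with senescence and Vegfa fell, by edgeR's quasi-likelihood F-test with Benjamini-Hochberg adjustment over 17416 genes (adjusted p under 0.05). Among all genes tested, 29.2% rose and 27% fell by the same rule. For Vegfc, Fgf2, Fgf10, Fgf7 and Pdgfrb, 5 in all, the log2 fold change was also over 1 in size, a rule met by 17.4% of all genes. In KO cells, 6 genes rose, 3 fell (Hgf, Vegfa and Pdgfra) and Vegfd did not pass the test, against 28.5% of all genes that rose and 28.6% that fell. In KO cells 4 genes passed with a log2 fold change over 1 in size, Fgf2, Fgf10, Vegfc and Hgf, beside 18.8% of all genes. The median log2 fold change was 0.98 for the 10 genes and 0.02 for all genes in WT cells, and 0.56 for the 10 genes against -0.003 for all genes in KO cells.

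The response to senescence differed between genotypes for 8 of the 10 genes, by a test of the interaction, the KO log2 fold change less the WT one. It was lower in KO cells for Hgf, Fgf7, Vegfc, Vegfd, Pdgfra and Pdgfrb and higher for Fgf2 and Fgf10, that is, 6 lower and 2 higher, where 11.7% of all genes tested lower and 9.24% higher. Hgf was the 1 gene of the 10 whose interaction was over 1 in size, beside 3.66% of all genes. The calls for Vegfc and Vegfd were lost when certain single libraries were left out, as given with each gene. Vegfa (0.07 ± 0.08 SE, adjusted p = 0.543) and Pdgfa (0.31 ± 0.12 SE, adjusted p = 0.0652) did not pass.

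**Figure D1:**
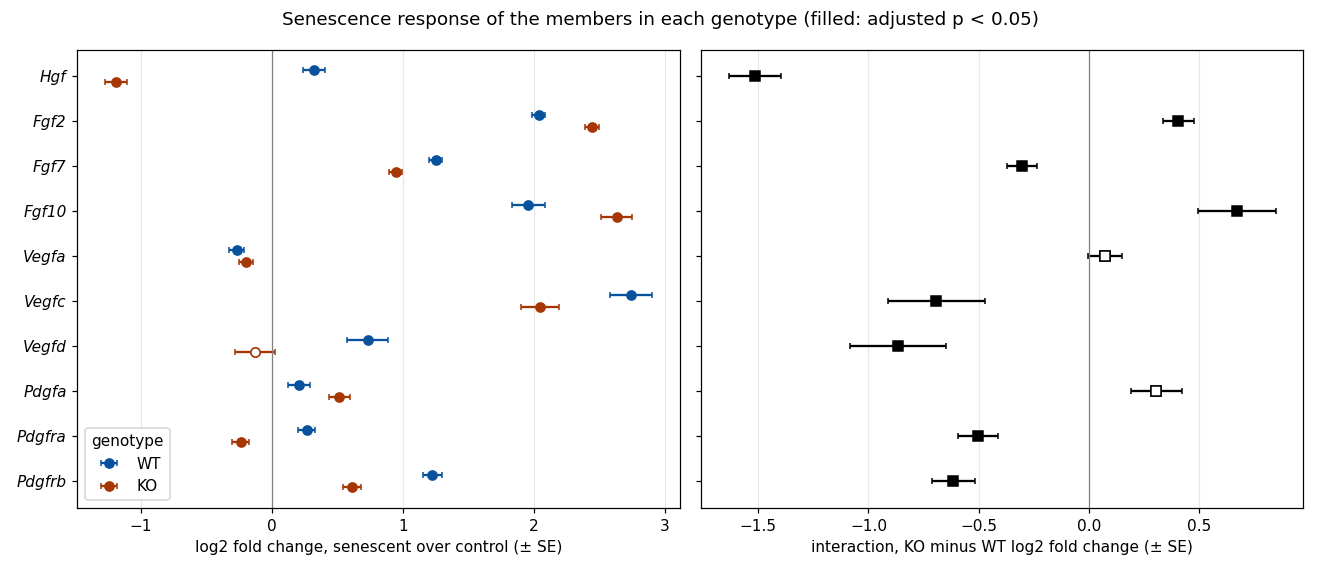
The left panel plots the log2 fold change of senescent over control cells for each gene (points, ± SE) in WT and KO cells, and the right panel plots the interaction. Hgf rose in WT cells and fell in KO cells, and its interaction of -1.51 lies farthest from 0 among the 10 genes. Open symbols did not pass the test.

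Of the 10 genes, 6 were higher and 2 lower in KO than in WT control cells, where 8.07% of all genes were higher and 4.96% lower. Hgf and Vegfc, 2 of the 10, passed with a log2 fold change over 1 in size, a rule met by 2.54% of all genes in that comparison. In senescent cells 6 of the 10 were higher and 3 lower in KO cells, where 11.9% of all genes were higher and 11.8% lower, and 0 of the 10 had a log2 fold change over 1 in size, beside 3.48% of all genes. The 5 comparisons share groups, so the values of a gene in them are not independent. Senescent libraries had TMM factors of 1.04 to 1.07 and control libraries 0.926 to 0.967, and without this scaling the median of all genes moved to 0.19 in the WT and to 0.15 in the KO comparison of senescent with control cells.

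**Figure D2:**
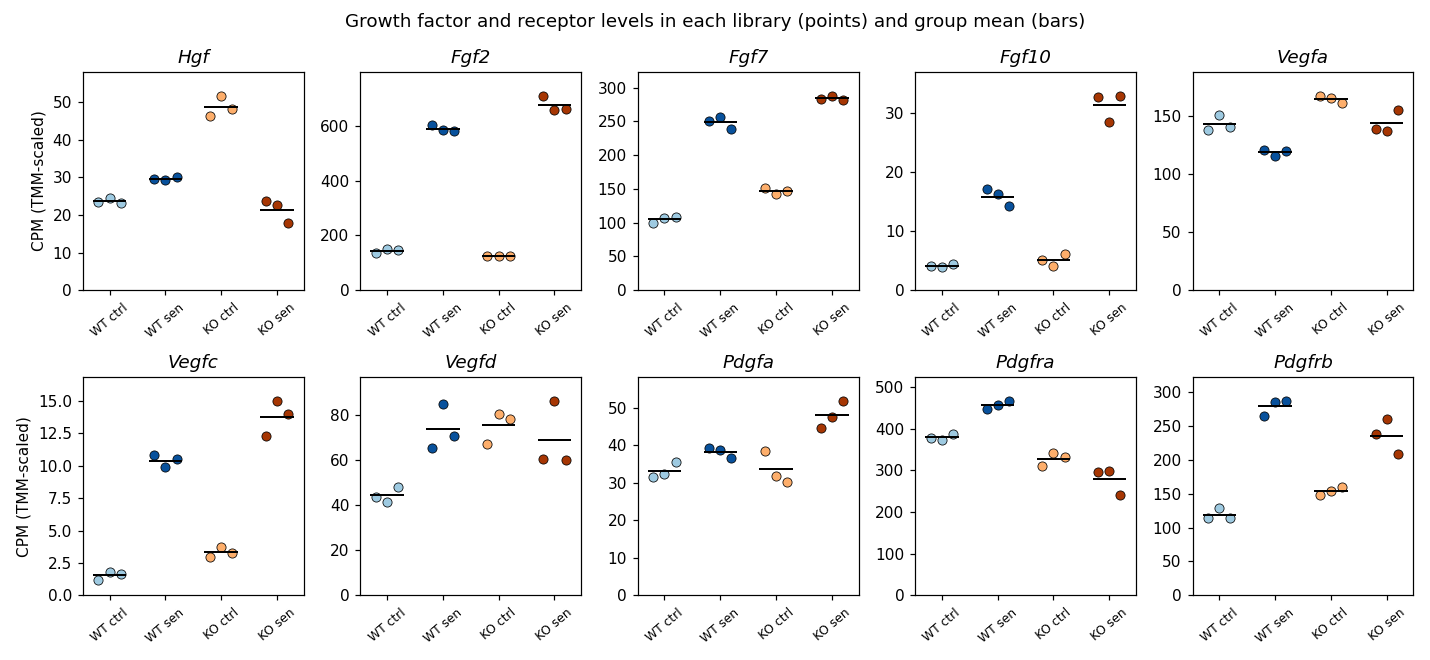
Each panel plots 1 gene, with TMM-scaled CPM on an axis from 0 (points, single libraries in replicate order; bars, group means). The 3 KO control libraries of Hgf lie between 46.3 and 51.7 CPM, above all other Hgf libraries, whereas Fgf2, Fgf10 and Vegfc are high in the senescent groups of both genotypes.

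Promoters are shown for Hgf, the gene of the 10 with the largest interaction in size, and for Fgf7 and Vegfc. The log2 CPM of the latter pair followed each other most closely among the 10 genes over the 12 libraries (Pearson r = 0.992). This r is a description, since the points share their 4 groups. Each sequence is the 250 bases before a RefSeq transcription start in GRCm38.p6, plus strand, at chr5:16553245-16553494 for Hgf, chr2:126034408-126034657 for Fgf7 and chr8:54077282-54077531 for Vegfc, with CG dinucleotides in capitals. For Hgf, RefSeq held 2 windows, and the first by coordinate is shown.
Hgf promoter: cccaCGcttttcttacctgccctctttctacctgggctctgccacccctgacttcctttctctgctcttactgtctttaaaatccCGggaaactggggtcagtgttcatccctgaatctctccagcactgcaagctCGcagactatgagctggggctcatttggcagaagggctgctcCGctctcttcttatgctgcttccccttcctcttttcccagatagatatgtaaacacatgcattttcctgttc
Fgf7 promoter: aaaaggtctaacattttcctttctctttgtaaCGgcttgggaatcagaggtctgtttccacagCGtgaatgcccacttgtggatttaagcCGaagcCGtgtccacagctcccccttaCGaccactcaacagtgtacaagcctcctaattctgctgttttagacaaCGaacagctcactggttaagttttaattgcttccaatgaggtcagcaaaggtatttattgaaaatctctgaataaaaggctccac
Vegfc promoter: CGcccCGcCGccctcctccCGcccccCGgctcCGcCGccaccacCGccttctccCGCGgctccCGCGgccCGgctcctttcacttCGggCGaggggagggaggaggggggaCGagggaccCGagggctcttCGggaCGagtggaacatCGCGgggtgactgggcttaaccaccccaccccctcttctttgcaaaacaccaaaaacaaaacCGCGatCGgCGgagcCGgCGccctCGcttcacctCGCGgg
RefSeq held 12 promoter windows for 9 of the genes, reaching a little past the start. Of these, 0 of 12 held the E-box CACGTG, to which BMAL1 binds with CLOCK, 0 of 12 held the AP-1 site TGAGTCA and 0 of 12 held the cyclic AMP response element TGACGTCA, on either strand and matched exactly. Among all 32851 windows, 7.15% held CACGTG, 5.2% held TGAGTCA and 1.79% held TGACGTCA. No match says only that these letters are not in these windows. The sequences shown hold 4 CG dinucleotides for Hgf, 6 for Fgf7 and 30 for Vegfc. Their whole windows, with the bases past the start that are not shown, hold 7, 11 and 35. The number for this Hgf window equals the median of all windows, that for Fgf7 is reached by 41.4% of all windows and that for Vegfc by 6.95%. The other Hgf window held 6. The remaining windows held from 2 in Vegfd to 37 in a window of Pdgfa.

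Hgf (ENSMUSG00000028864, GRCm38 chromosome 5, 16553495 to 16620152, plus strand) encodes the ligand of MET. It was at 23.4, 24.6 and 23.2 CPM among WT control libraries, 29.6, 29.3 and 30.2 CPM in WT senescent, 46.3, 51.7 and 48.2 CPM in KO control and 23.7, 22.6 and 17.9 CPM in KO senescent libraries. The KO control libraries stood above all others, and the KO senescent libraries were within or below the range of the WT control libraries. Hgf rose by 0.32 ± 0.085 (SE, log2, adjusted p = 0.00263) in WT cells and fell by 1.19 in KO cells (SE 0.083, adjusted p = 9.5e-11), to 0.438 of the KO control level. The interaction was -1.51 ± 0.12 (SE, adjusted p = 1.64e-07) and lay between -1.59 and -1.40 under all 18 alternative settings. In control cells Hgf was 2.06-fold higher in KO than in WT (log2 1.04 ± 0.084, adjusted p = 1.91e-08), and in senescent cells it was lower in KO (log2 -0.48 ± 0.085, adjusted p = 0.000275).

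The genes whose log2 CPM was most like that of Hgf over the 12 libraries, among 10945 genes averaging 5 CPM or more, were Ntrk3 (r = 0.973), a neurotrophin receptor, and Meis2 (r = 0.963), a homeobox transcription factor. Ntrk3 was at 5.25 ± 0.76 CPM among WT control libraries, 7.18 ± 0.40 CPM in WT senescent, 13.9 ± 1.3 CPM in KO control and 3.43 ± 0.98 CPM in KO senescent cells (SD, n = 3). Meis2 had the same order of group means over a narrower range, from 66.3 ± 3.4 CPM in KO senescent and 68.1 ± 1.7 CPM in WT control to 80.3 ± 1.9 CPM in KO control cells.

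Unlike Hgf, which rose in WT and fell in KO cells, Met, the gene of the HGF receptor, fell in both. It was at 87.6 ± 10.3 CPM among WT control libraries, 30.2 ± 2.1 CPM in WT senescent, 64.8 ± 5.8 CPM in KO control and 30.5 ± 3.3 CPM in KO senescent cells (SD, n = 3), a fall in WT cells (log2 -1.53 ± 0.095, adjusted p = 5.5e-10) and in KO cells (log2 -1.09 ± 0.095, adjusted p = 4.31e-08). The interaction for Met was 0.45 ± 0.13 (SE, adjusted p = 0.0257) and was lost in 8 of 12 fits that left out 1 library (adjusted p up to 0.0752). Of 9 genes listed for the HGF axis beside Hgf, Met included, 7 were tested. In WT cells 4 rose and 1, Met, fell, where 29.2% of all genes rose and 27% fell, and in KO cells 3 rose and 2, Met and Gab1, fell, where 28.5% rose and 28.6% fell. The list includes St14, a membrane serine protease able to activate the HGF precursor, which rose from 0.429 ± 0.12 to 4.02 ± 0.44 CPM in WT (log2 3.20 ± 0.28, adjusted p = 4.19e-09) and from 0.256 ± 0.12 to 3.87 ± 0.36 CPM in KO cells (log2 3.89 ± 0.31, adjusted p = 5.52e-10). Mst1r, the gene of a receptor related to MET, rose in both (log2 1.5 ± 0.21, adjusted p = 2.85e-06 in WT, and 1.33 ± 0.21, adjusted p = 1.03e-05 in KO). Spint2, an inhibitor of HGF-activating proteases, rose in KO cells (log2 1.40 ± 0.26, adjusted p = 0.000112), while its change in WT cells (0.62 ± 0.25, adjusted p = 0.0384) was lost without WT control 2 or 3 or WT senescent 1 or 2 (adjusted p up to 0.176).

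Fgf2 (ENSMUSG00000037225, chromosome 3, 37348346 to 37410108, plus strand) encodes basic FGF. It was at 137, 150 and 146 CPM among WT control libraries, 605, 585 and 583 CPM in WT senescent, 125, 125 and 125 CPM in KO control and 710, 660 and 664 CPM in KO senescent libraries. Both senescent groups stood far above both control groups, with no overlap between any of the 4 groups. Fgf2 rose 4.10-fold in WT cells (log2 2.04 ± 0.051, adjusted p = 1.78e-17) and 5.43-fold in KO cells (log2 2.44 ± 0.052, adjusted p = 1.56e-18), and the interaction was 0.41 ± 0.070 (adjusted p = 0.000395). KO cells had less Fgf2 than WT cells in the control state (log2 -0.21 ± 0.050, adjusted p = 0.00819) and more in the senescent state (0.20 ± 0.049, adjusted p = 0.0047). With a block for replicate number within genotype neither passed (adjusted p of 0.395 in control and 0.0506 in senescent cells). That fit compares KO with WT at the level of replicate 1 only, so it is not a check of these calls. Exons of Nudt6 and a predicted gene overlap those of Fgf2, but Nudt6 had 64 to 97 counts per library against 2909 to 19661 for Fgf2. Its level was most like that of Tgoln1 (r = 0.998) and Zfand2a (r = 0.997).

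Fgf7 (ENSMUSG00000027208, chromosome 2, 126034658 to 126091185, plus strand) encodes keratinocyte growth factor. It was at 100, 106 and 108 CPM among WT control libraries, 251, 257 and 239 CPM in WT senescent, 152, 143 and 147 CPM in KO control and 283, 287 and 281 CPM in KO senescent libraries. The 4 groups did not overlap, and KO libraries were the higher in each state. Fgf7 rose by a log2 fold change of 1.25 ± 0.050 in WT (adjusted p = 1.44e-14) and 0.95 ± 0.050 in KO cells (adjusted p = 7.97e-13), with an interaction of -0.30 ± 0.070 (adjusted p = 0.00397). The excess in KO over WT was 0.49 ± 0.050 in control cells (adjusted p = 5.71e-07) and 0.19 ± 0.049 in senescent cells (adjusted p = 0.00663), the latter lost without WT senescent 3 (0.16, adjusted p = 0.0577). Npc2 (r = 0.997), a lysosomal cholesterol-binding protein, and Ak1 (r = 0.994), an adenylate kinase, were most like it.

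Fgf10 (ENSMUSG00000021732, chromosome 13, 118669791 to 118792115, plus strand) encodes a close relative of FGF7. It was at 4.06, 3.83 and 4.33 CPM among WT control libraries, 17.0, 16.2 and 14.2 CPM in WT senescent, 5.08, 4.11 and 6.05 CPM in KO control and 32.6, 28.4 and 32.8 CPM in KO senescent libraries. The senescent libraries were above the control libraries in each genotype, all 3 KO senescent libraries were above all WT senescent ones, and the control groups overlapped. Fgf10 rose 3.89-fold in WT (log2 1.96 ± 0.13, adjusted p = 2.92e-11) and 6.20-fold in KO cells (log2 2.63 ± 0.12, adjusted p = 9.08e-14), with an interaction of 0.67 ± 0.18 (adjusted p = 0.00966). KO and WT differed by 0.98 ± 0.11 in senescent cells (adjusted p = 9.83e-07), whereas the difference of 0.31 ± 0.14 in control cells did not pass (adjusted p = 0.167). Rasa2 (r = 0.993), a RAS GTPase-activating protein, and Ikbkg (r = 0.993), a subunit of the IKK complex, were most like it.

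Of the 19 other FGF family genes listed, not all of which encode secreted ligands, 10 had enough counts to be tested. In WT cells 6 of them rose and 0 fell, in KO cells 7 rose and 0 fell, beside 29.2% of all genes that rose and 27% that fell in WT, and 28.5% and 28.6% in KO cells. The interaction was passed by 0 of 10 with edgeR or DESeq2 (2 at an unadjusted p under 0.05), where 9.24% of all genes were higher and 11.7% lower. Without WT control 3 the interaction was passed by 3. The counts of 0 that fell were also 0 at an unadjusted p under 0.05 and by DESeq2. With at least 1 CPM on average, Fgf18 rose from 0.470 ± 0.20 to 3.03 ± 0.57 CPM in WT cells (log2 2.66 ± 0.30, adjusted p = 1.5e-07), and in KO cells its rise was from 0.904 ± 0.16 to 3.43 ± 0.52 CPM (1.91 ± 0.27, adjusted p = 3.17e-06). Fgf14, which encodes an FGF-like protein that stays inside the cell, rose by 1.98 ± 0.24 in WT (adjusted p = 3.98e-07) and 1.38 ± 0.23 in KO cells (adjusted p = 2.21e-05). Fgf9 rose in KO cells (2.82 ± 0.54, adjusted p = 0.000193) and its change in WT cells (1.38 ± 0.48, adjusted p = 0.021) was lost without WT control 3 or WT senescent 1 or 2, with adjusted p up to 0.102. Fgf1 was at 0.607 to 1.31 CPM in the group means, with a change of 1.12 ± 0.39 in KO cells (adjusted p = 0.0186) that was lost without KO control 2 or 3 or KO senescent 2 (adjusted p up to 0.115).

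The FGF receptors and their cofactors moved in both directions. Of 11 such genes 8 were tested, of which 5 rose and 1 fell in WT cells, 2 rose and 4 fell in KO cells, and 3 had a lower response in KO cells with an interaction over 1 in size (Fgfr2, Fgfr3 and Fgfrl1). Of all genes, 29.2% rose and 27% fell in WT, 28.5% rose and 28.6% fell in KO, and 3.66% passed with an interaction over 1 in size in either direction. Fgfr1, the gene of the main FGF2 receptor of fibroblasts, was at 199 ± 1.2 CPM among WT control libraries, 245 ± 4.9 CPM in WT senescent, 223 ± 12 CPM in KO control and 246 ± 6.2 CPM in KO senescent cells (SD, n = 3). It rose in WT cells (log2 0.29 ± 0.049, adjusted p = 2.77e-05), and its change in KO cells, 0.14 ± 0.049 (adjusted p = 0.0163), was lost without KO control 1 or 3 or KO senescent 2 (adjusted p up to 0.102).

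Counts per gene do not tell splice forms apart, so they do not say which FGFs the products of a receptor gene could bind. Fgfr2 was at 137 ± 2.0 CPM among WT control libraries, 229 ± 21 CPM in WT senescent, 144 ± 20 CPM in KO control and 102 ± 23 CPM in KO senescent cells (SD, n = 3). It rose in WT cells (log2 0.74 ± 0.16, adjusted p = 0.00299), and its change in KO cells (-0.51 ± 0.16, adjusted p = 0.0224) was lost without KO control 2 or 3 or KO senescent 1 or 3 (adjusted p up to 0.0779). The interaction of -1.25 ± 0.23 (adjusted p = 0.00455) held under all 18 alternative settings. Fgfr3 was at 71.3 ± 14.2, 56.8 ± 4.8, 53.9 ± 17.4 and 13.7 ± 1.5 CPM in control and then senescent WT cells and control and then senescent KO cells (SD, n = 3), with an interaction of -1.64 ± 0.36 (adjusted p = 0.0122). Fgfrl1, which encodes a receptor-like protein without a kinase domain, was at 142 ± 14, 193 ± 14, 156 ± 31 and 89.0 ± 10.1 CPM in the same order (SD, n = 3), with an interaction of -1.26 ± 0.21 (adjusted p = 0.00261). The summed chondrocyte markers had their lowest level, 614 to 711 CPM, in the same KO senescent libraries, with 0 of the 10 markers at 0, and their part in these results was not tested. Fgfbp3, an FGF-binding protein, rose in WT (log2 1.14 ± 0.17, adjusted p = 6.69e-06) and in KO cells (0.60 ± 0.16, adjusted p = 0.00258).

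Vegfa (ENSMUSG00000023951, chromosome 17, 46016993 to 46032369, minus strand) was the 1 ligand that was lower in senescent cells of both genotypes. It was at 138, 151 and 141 CPM among WT control libraries, 121, 116 and 120 CPM in WT senescent, 167, 166 and 162 CPM in KO control and 139, 138 and 155 CPM in KO senescent libraries. Senescent libraries were below their controls in each genotype without overlap, by a small amount. The log2 fold change was -0.27 ± 0.054 in WT (adjusted p = 0.000248) and -0.19 ± 0.054 in KO cells (adjusted p = 0.00406), but on unscaled totals it was -0.10 (adjusted p = 0.126) and -0.04 (adjusted p = 0.542), and neither passed. Vegfa was higher in KO than in WT senescent cells (0.28 ± 0.054, adjusted p = 0.000686), and the difference in control cells (0.20 ± 0.054, adjusted p = 0.0152) was lost without KO control 2 or WT control 1 (adjusted p up to 0.0889).

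Vegfc (ENSMUSG00000031520, chromosome 8, 54077606 to 54187096, plus strand) had the largest rise of the 10 genes in WT cells. It was at 1.17, 1.83 and 1.67 CPM among WT control libraries, 10.8, 9.90 and 10.5 CPM in WT senescent, 2.96, 3.70 and 3.26 CPM in KO control and 12.3, 15.0 and 14.0 CPM in KO senescent libraries. No 2 groups overlapped, and KO libraries were the higher in each state. Vegfc rose 6.68-fold in WT (log2 2.74 ± 0.16, adjusted p = 7.4e-12) and 4.14-fold in KO cells (log2 2.05 ± 0.14, adjusted p = 9.86e-11). In control cells it was 2.14-fold higher in KO (log2 1.09 ± 0.18, adjusted p = 0.000217). The interaction of -0.69 ± 0.22 (adjusted p = 0.0299) was lost without KO control 2 or 3, KO senescent 1, WT control 1 or WT senescent 1 or 3 (adjusted p up to 0.117). The excess of KO in senescent cells (0.40 ± 0.13, adjusted p = 0.0278) was lost without KO senescent 2 or 3 or any 1 of the WT senescent libraries (adjusted p up to 0.12). Cpxm1 (r = 0.994) and Npc2 (r = 0.993) were most like it.

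Vegfd (ENSMUSG00000031380, chromosome X, 164373378 to 164402650, plus strand), the other lymphatic factor, was at 43.7, 41.6 and 48.1 CPM among WT control libraries, 65.7, 85.0 and 71.0 CPM in WT senescent, 67.4, 80.8 and 78.5 CPM in KO control and 60.5, 86.3 and 60.2 CPM in KO senescent libraries. The WT control libraries were below all others, and the other 3 groups overlapped, with replicate 2 the highest in each. Vegfd rose in WT cells (log2 0.73 ± 0.16, adjusted p = 0.00256) and was at -0.13 ± 0.15 in KO cells (adjusted p = 0.494), where leaving out KO senescent 2 gave -0.33 (adjusted p = 0.0126). The interaction of -0.86 ± 0.22 (adjusted p = 0.0202) was lost without KO control 2 or 3, KO senescent 3 or WT control 2 (adjusted p up to 0.0569). KO exceeded WT in control cells (0.77 ± 0.16, adjusted p = 0.0109), and in senescent cells the difference was -0.10 ± 0.15 (adjusted p = 0.696).

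The blood vessel VEGF receptor genes were low in these cells. Kdr was at 1.88 ± 0.14 to 2.57 ± 0.21 CPM and passed in none of the 5 comparisons (adjusted p of 0.41 or more), and Flt1, another VEGF-A receptor, rose from 3.28 ± 0.47 to 5.82 ± 1.19 CPM in WT (log2 0.82 ± 0.18, adjusted p = 0.000501) and from 3.84 ± 0.51 to 6.59 ± 0.45 CPM in KO cells (0.78 ± 0.17, adjusted p = 0.000652). Flt4, the VEGF-C and VEGF-D receptor, was at 32.9 ± 4.6, 23.0 ± 1.2, 38.1 ± 2.7 and 34.8 ± 4.6 CPM in control and then senescent WT cells and control and then senescent KO cells (SD, n = 3). It fell in WT cells (-0.52 ± 0.10, adjusted p = 0.000335), and neither its change in KO cells (-0.13 ± 0.10, adjusted p = 0.279) nor the interaction (0.39 ± 0.14, adjusted p = 0.0657) passed. Of 7 endothelial markers, Pecam1, Cdh5, Tek, Emcn, Vwf and Tie1 were at 2.62 CPM or less in every library. Erg, the other one, was at 32.8 ± 7.2 and 23.8 ± 2.6 CPM in WT and 35.5 ± 9.9 and 6.21 ± 1.57 CPM in KO control and senescent cells (SD, n = 3), and it carried most of the summed level of 8.54 to 46.2 CPM. The lymphatic markers Prox1 and Lyve1 reached 4.10 and 1.76 CPM. The part of endothelial cells in these results was not tested.

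The neuropilin co-receptors, which bind VEGFs beside the kinases, fell in both genotypes. Nrp1 went from 181 ± 4.4 to 115 ± 3.3 CPM in WT (log2 -0.66 ± 0.062, adjusted p = 8.91e-09) and from 166 ± 11 to 97.7 ± 8.7 CPM in KO cells (-0.76 ± 0.062, adjusted p = 9.4e-10). Nrp2 went from 51.2 ± 1.5 to 25.1 ± 1.1 CPM in WT (-1.03 ± 0.072, adjusted p = 1.12e-10) and from 72.5 ± 6.4 to 28.6 ± 2.0 CPM in KO cells (-1.34 ± 0.071, adjusted p = 9.7e-13). Among the other VEGF ligands, Vegfb rose in WT (0.86 ± 0.10, adjusted p = 4.02e-07) and KO cells (0.46 ± 0.10, adjusted p = 0.000582), and Pgf, placental growth factor, rose from 0.296 ± 0.082 to 2.26 ± 0.38 CPM in WT (2.92 ± 0.33, adjusted p = 1.23e-07) and from 0.302 ± 0.079 to 3.42 ± 0.64 CPM in KO cells (3.46 ± 0.31, adjusted p = 4.67e-09).

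Pdgfa (ENSMUSG00000025856, chromosome 5, 138976014 to 138997370, minus strand) encodes a PDGF chain that signals through PDGFRA. It was at 31.7, 32.3 and 35.5 CPM among WT control libraries, 39.3, 38.9 and 36.7 CPM in WT senescent, 38.6, 31.9 and 30.4 CPM in KO control and 44.6, 47.7 and 51.7 CPM in KO senescent libraries. The control groups overlapped, and the KO senescent libraries were above all others. Pdgfa rose in KO cells (log2 0.52 ± 0.081, adjusted p = 1.44e-05). It was higher in KO than in WT senescent cells (0.33 ± 0.080, adjusted p = 0.0049). With a block for replicate number within genotype the adjusted p was 0.0679, but that fit compares KO with WT at the level of replicate 1 only. The change of Pdgfa in WT cells (0.21 ± 0.082, adjusted p = 0.0367) was lost without WT control 1 or 2 or WT senescent 1 or 2 (adjusted p up to 0.145) and by DESeq2 (adjusted p = 0.0617). The interaction passed by DESeq2 (0.34, adjusted p = 0.0429), with its size factors in edgeR (adjusted p = 0.0442), without the filter on low counts (adjusted p = 0.0387), and without KO control 1 (0.42, adjusted p = 0.00461) or KO senescent 1 (adjusted p = 0.0395). The control groups differed by 0.02 ± 0.083 (adjusted p = 0.92). Of its 3119 exon bases, 813 are shared with the opposite-strand gene 6330403L08Rik, which had 298 to 1015 counts against 707 to 1532 for Pdgfa, and because the use of strand in counting is not given, the counts of Pdgfa are uncertain.

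Pdgfra (ENSMUSG00000029231, chromosome 5, 75152292 to 75198215, plus strand) encodes the receptor that marks most fibroblasts. It was at 377, 374 and 388 CPM among WT control libraries, 447, 457 and 466 CPM in WT senescent, 310, 342 and 332 CPM in KO control and 296, 300 and 241 CPM in KO senescent libraries. The WT senescent libraries were above and the KO senescent libraries below all others. It rose in WT cells (log2 0.27 ± 0.065, adjusted p = 0.00145). In KO cells it fell (-0.24 ± 0.065, adjusted p = 0.004), but on unscaled totals this was -0.08 (adjusted p = 0.263). The interaction of -0.50 ± 0.092 (adjusted p = 0.000651) and the deficit of KO in senescent cells (-0.71 ± 0.065, adjusted p = 1.31e-07) passed in every fit that left out 1 library. In control cells the difference of -0.21 ± 0.065 (adjusted p = 0.0379) was lost without any 1 of 9 libraries, namely each WT library and each KO control library (adjusted p up to 0.115).

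Pdgfrb (ENSMUSG00000024620, chromosome 18, 61045150 to 61085061, plus strand), the receptor gene typical of mural cells and also active in fibroblasts, rose in both genotypes. It was at 114, 129 and 115 CPM among WT control libraries, 265, 285 and 286 CPM in WT senescent, 149, 154 and 159 CPM in KO control and 238, 260 and 208 CPM in KO senescent libraries. The control groups did not overlap, nor did the senescent groups, and KO was the higher genotype in control and the lower in senescent cells. The log2 fold change was 1.23 ± 0.070 in WT (adjusted p = 7.7e-12) and 0.61 ± 0.069 in KO cells (adjusted p = 2.13e-07), with an interaction of -0.62 ± 0.097 (adjusted p = 0.000209). KO exceeded WT by 0.37 ± 0.070 in control cells (adjusted p = 0.00102). In senescent cells the difference was -0.25 ± 0.068 (adjusted p = 0.012) and was lost without KO senescent 3 or WT senescent 2 or 3 (adjusted p up to 0.0767). Of 6 mural cell markers, Cspg4 was the most abundant and was lower in senescent cells, at 501 ± 12 and 213 ± 7.9 CPM in WT and 451 ± 32 and 233 ± 6.5 CPM in KO control and senescent cells (SD, n = 3). It carried most of the summed level of the list, 497 to 519 and 236 to 248 CPM in WT and 425 to 489 and 266 to 277 CPM in KO libraries. The other 5 markers, Rgs5, Notch3, Abcc9, Des and Kcnj8, were higher in every senescent library than in every control library of the same genotype, as Pdgfrb was. Rgs5 was at 1.44 ± 0.63 and 5.72 ± 1.05 CPM in WT and 1.47 ± 0.098 and 13.5 ± 1.2 CPM in KO control and senescent cells, and Notch3 at 6.81 ± 0.49 and 22.4 ± 1.3 CPM in WT and 11.0 ± 2.2 and 19.8 ± 2.1 CPM in KO control and senescent cells. Abcc9, Des and Kcnj8 were at 2.63 CPM or less in every library. The part of mural cells in the result was not tested. Exoc4 and Calcoco1 (r = 0.99 for each) were most like Pdgfrb.

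Between the 2 receptors, the balance shifted toward Pdgfrb with senescence. Per 1000 exon bases, the ratio of Pdgfra to Pdgfrb was 1.59 to 1.85 in WT control, 0.875 to 0.921 in WT senescent, 1.14 to 1.21 in KO control and 0.63 to 0.678 in KO senescent libraries. On CPM not divided by length, Pdgfra was the higher of the pair in all 12 libraries, so the side of 1 on which the ratio lies rests on the exon lengths used, 10024 bases for Pdgfra and 5478 for Pdgfrb. The 4 groups did not overlap, and per 1000 bases Pdgfrb exceeded Pdgfra in every senescent library of either genotype and in 0 of the control libraries. The ratio of Fgf7 to Fgf10, which share a receptor, fell from 34.9 to 39.4 in WT control to 20.9 to 23.9 in WT senescent libraries and from 34.5 to 49.3 in KO control to 12.2 to 14.3 in KO senescent libraries. The ratio of Vegfa to Vegfc was 47.1 to 67.7 in WT control, 6.38 to 6.70 in WT senescent, 25.6 to 32.3 in KO control and 5.26 to 6.50 in KO senescent libraries, so that the senescent groups overlapped and the control groups did not. These ratios repeat the changes of the single genes and were not tested on their own.

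**Figure D3:**
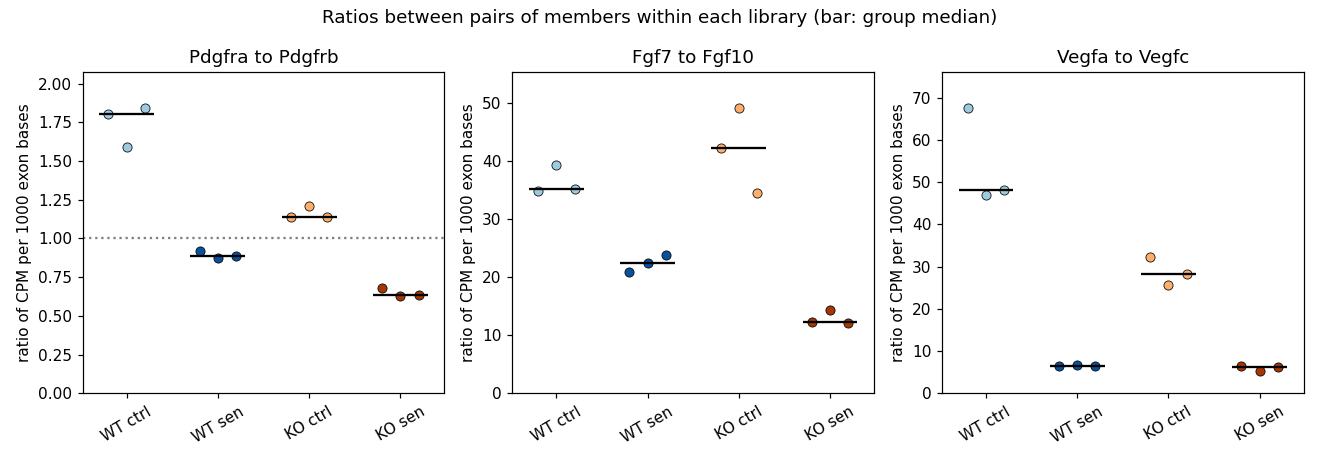
Ratios of length-scaled levels (CPM per 1000 exon bases, axis from 0) within each library are plotted by group, with bars at group medians and a dotted line at a ratio of 1 for the PDGF receptors. The Pdgfra to Pdgfrb ratio is above 1 in all control and below 1 in all senescent libraries.

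On the length-scaled level, CPM per 1000 exon bases, Fgf2 and Fgf7 led in senescent cells of both genotypes. In WT control cells the highest means were Pdgfra at 37.8, Vegfa at 33.4 and Fgf7 at 32.2, of which Vegfa and Fgf7 overlapped between libraries, and the lowest was Vegfc at 0.636. In WT senescent cells Fgf2 at 87.1, Fgf7 at 76.6, Pdgfrb at 50.9 and Pdgfra at 45.5 followed each other without overlap, and at the low end Vegfc at 4.25 and Hgf at 4.13 overlapped, with Fgf10 lowest at 3.44. In KO control cells the order began with Fgf7 at 45.4, Vegfa at 38.5 and Pdgfra at 32.8, the last overlapping Vegfd at 31.4, and it ended with Hgf at 6.78, Vegfc at 1.35 and Fgf10 at 1.10, the last pair overlapping. In KO senescent cells Fgf2 at 100 and Fgf7 at 87.4 led, and Hgf was lowest at 2.98, below Vegfc at 5.61 and Fgf10 at 6.80 without overlap.

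**Figure D4:**
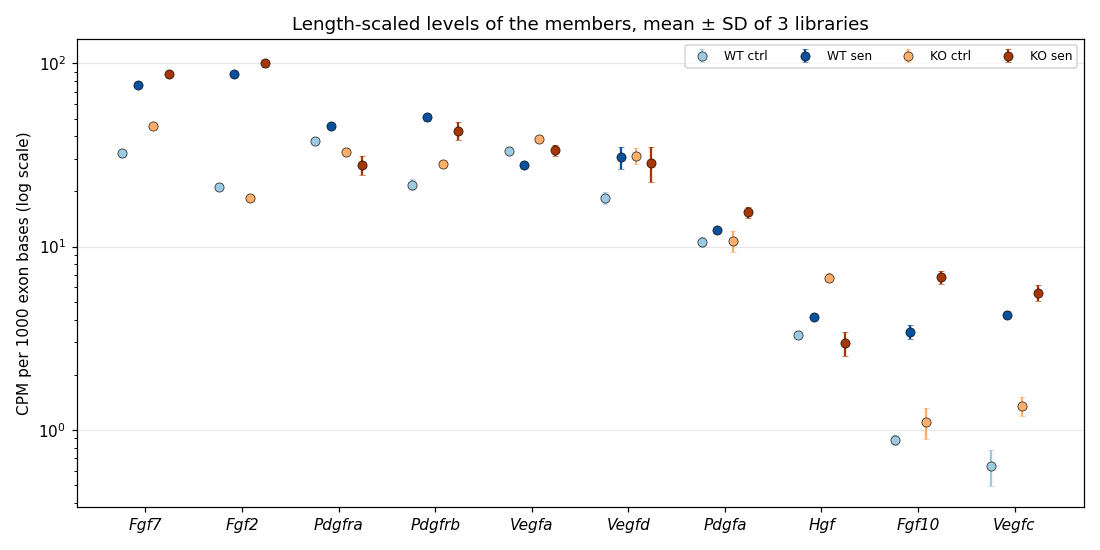
Length-scaled levels (CPM per 1000 exon bases, logarithmic axis) of the 10 genes, ordered by their mean, are plotted for the 4 groups as mean ± SD of 3 libraries. Fgf2 moves from 18.4 to 100 in KO cells and Hgf from 6.78 to 2.98.

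The other PDGF ligand genes rose with senescence in both genotypes. Pdgfb went from 1.07 ± 0.34 to 2.84 ± 0.46 CPM in WT (log2 1.41 ± 0.29, adjusted p = 0.000279) and from 0.317 ± 0.20 to 3.96 ± 0.17 CPM in KO cells (3.61 ± 0.34, adjusted p = 8.02e-09). The interaction was 2.20 ± 0.46 (adjusted p = 0.00186). It rests on few counts, since the KO control libraries lay between 0.129 and 0.52 CPM, the lowest close to the detection floor. Pdgfc went from 63.9 ± 6.0 to 106 ± 5.5 CPM in WT (0.73 ± 0.063, adjusted p = 2.99e-09) and from 72.4 ± 3.8 to 116 ± 0.62 CPM in KO cells (0.69 ± 0.062, adjusted p = 5.62e-09). Pdgfd went from 0.528 ± 0.29 to 2.33 ± 0.68 CPM in WT (2.16 ± 0.33, adjusted p = 9.39e-06) and from 1.67 ± 0.11 to 4.61 ± 0.83 CPM in KO cells (1.46 ± 0.27, adjusted p = 8.78e-05). Pdgfrl, a receptor-like gene, fell in KO cells (-1.07 ± 0.18, adjusted p = 2.18e-05) and was at -0.06 ± 0.18 in WT cells (adjusted p = 0.795), with an interaction of -1.01 ± 0.25 (adjusted p = 0.00666). Plat, tissue plasminogen activator, which can activate PDGF-C, was higher in KO than in WT by 1.39 ± 0.074 in control (adjusted p = 3.33e-11) and 1.38 ± 0.072 in senescent cells (adjusted p = 4.21e-11). Together, of the 14 genes listed for the VEGF and PDGF axis beside the 10, 7 rose and 4 fell in WT cells, where 29.2% of all genes rose and 27% fell, and 7 rose and 3 fell in KO cells, where 28.5% rose and 28.6% fell.

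Finally, 16 genes that receptor tyrosine kinase signalling induces, many of which feed back on it, were examined. This list, like the gene lists above, was chosen with earlier results of these data known, so its counts are a description only. In WT cells 10 rose and 3 fell, with a median log2 fold change of 0.63, and in KO cells 15 rose and 0 fell, with a median of 0.79. Among all genes, 29.2% rose and 27% fell in WT cells, and 28.5% rose and 28.6% fell in KO cells. The interaction was higher in KO cells for 9 of the 16 (Dusp5, Dusp6, Egr1, Ier3, Phlda1, Spred2, Spred3, Spry1 and Spry4) and lower for 0, where 9.24% of all genes were higher and 11.7% lower, with a median of 0.47 beside -0.03 for all genes. The counts of 0 in KO cells and in the interaction were also 0 at an unadjusted p under 0.05 and by DESeq2. The count of 9 lay between 6 and 9 under the alternative settings. In senescent cells 9 were higher in KO than in WT and 0 lower (11.9% and 11.8% of all genes), and in control cells 2 were higher and 4 lower (8.07% and 4.96% of all genes). These genes also respond to other inputs, so their levels do not report any 1 receptor.

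Dusp6, a phosphatase of the kinase ERK, was at 11.9 ± 0.52 CPM among WT control libraries, 17.5 ± 1.6 CPM in WT senescent, 12.1 ± 2.0 CPM in KO control and 30.6 ± 2.6 CPM in KO senescent cells (SD, n = 3), with an interaction of 0.77 ± 0.15 (adjusted p = 0.00107). Spry1, a Sprouty inhibitor of the pathway, was at 4.36 ± 0.37, 7.50 ± 1.45, 4.35 ± 0.65 and 14.4 ± 1.4 CPM in the same order (interaction 0.94 ± 0.22, adjusted p = 0.00413). Phlda1 was at 49.1 ± 2.7, 76.6 ± 3.1, 33.1 ± 1.8 and 87.9 ± 9.9 CPM in that order (interaction 0.77 ± 0.10, adjusted p = 3.81e-05). These 3 interactions held under all 18 alternative settings, whereas that of Spry4, another Sprouty gene (0.80 ± 0.25, adjusted p = 0.0275), was lost in 7 of 12 fits that left out 1 library (adjusted p up to 0.0874). Dusp4, a related phosphatase, and the ETS factors Etv1 and Etv5 rose in both genotypes, Dusp4 by 1.20 ± 0.14 (adjusted p = 1.45e-07) in WT and 1.58 ± 0.13 (adjusted p = 1.01e-09) in KO cells. Etv1 rose by 1.85 ± 0.28 (adjusted p = 8.87e-06) and 1.77 ± 0.25 (adjusted p = 4.22e-06), and Etv5 by 1.29 ± 0.081 (adjusted p = 2.77e-11) and 1.15 ± 0.080 (adjusted p = 1.29e-10), in WT and KO cells, with interactions that did not pass (adjusted p of 0.173 for Dusp4, 0.907 for Etv1 and 0.404 for Etv5).

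**Figure D5:**
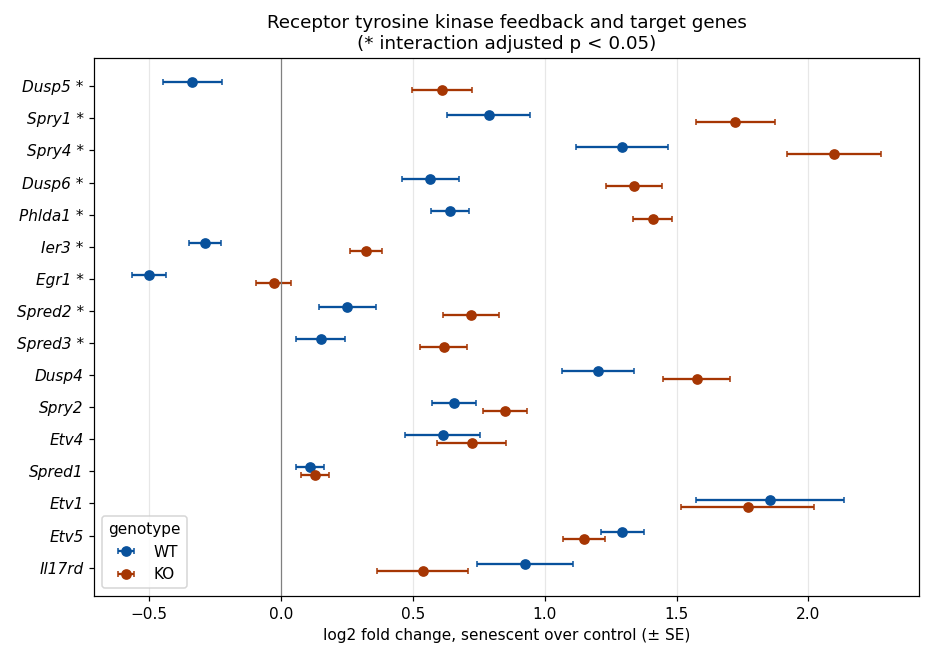
The log2 fold change of senescent over control cells (± SE) is plotted for 16 feedback and target genes in WT and KO cells, ordered by the interaction, with an asterisk where the interaction passed. For all 9 marked genes the KO point lies to the right of the WT point, and Dusp5 and Ier3 lie below 0 in WT and above 0 in KO cells.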

How the data were processed

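RNA-seq was performed on 12 libraries of MAFs. The authors deposited whole-number raw counts of each gene in 1 table per genotype, and all columns were assigned to libraries by their labels. Per the labels and the study's methods, libraries from poly(A) RNA were sequenced as paired reads, demultiplexed with bcl2fastq 2.17, trimmed with Trimmomatic 0.36 and mapped with STAR 2.5.2b to GRCm38, and featureCounts assigned uniquely mapped reads to exons. Reads shared by near-identical sequences were thus dropped. The strand setting and annotation release were not given in the sources used here. Symbols, coordinates and exon lengths came from a GENCODE annotation of GRCm38.

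Counts were analysed with edgeR 4.0.16 (R 4.3.3, limma 3.58.1). Genes kept by filterByExpr, TMM factors and a robust quasi-likelihood fit over all 12 libraries, with 1 mean per group, gave 5 comparisons with Benjamini-Hochberg adjustment over 17416 genes. A gene passed at an adjusted p under 0.05. The SE (standard error) of each log2 fold change is its absolute size over the square root of F. The scripts were tested on simulated data.

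The 10 genes, the pathway lists and the markers were chosen with earlier results of these data known. Named beside the 10 were their main receptors, the other VEGF and PDGF ligands, list genes averaging 1 CPM or more that passed with a log2 fold change over 1 in size in any comparison, and for genes of the 10 that did so the 2 most correlated genes averaging 5 CPM or more (log2 CPM, prior count 2). Alternatives were DESeq2 1.42.0, its size factors, no filter on low counts, a replicate block, a fit of the 2 groups only, an adjusted p under 0.01 and leaving out each library. Fits on unscaled totals, and alternatives for the list genes, were chosen after seeing the data. Depth is given by total counts. The detection floor covers counting error only, since the reads carried no molecular identifiers, while SD and SE also hold the spread between libraries.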

Additional observations from a re-analysis of the deposited data

Results flagged for a closer look

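Of the 10 genes, 8 had a senescence response that differed between KO and WT cells by the interaction test of edgeR. Among all genes, 9.24% tested higher and 11.7% lower. The calls for Vegfc and Vegfd were lost when certain single libraries were left out. The interaction, in log2, was -1.51 for Hgf, 0.41 for Fgf2, -0.30 for Fgf7, 0.67 for Fgf10, -0.69 for Vegfc, -0.86 for Vegfd, -0.50 for Pdgfra and -0.62 for Pdgfrb. Hgf and Pdgfra changed in opposite directions in the 2 genotypes, although the fall of Pdgfra in KO cells did not pass on unscaled totals (adjusted p = 0.263). Fgf2, Fgf7, Fgf10, Vegfc and Pdgfrb rose in both genotypes to a different extent. Groups of 3 libraries are too small for a test of single outlying libraries.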

How the results depend on the processing

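Of 50 results for single genes among the 10, 34 kept their call at an adjusted p under 0.05 in every alternative fit. Leaving out 1 of the 12 libraries changed 10 and another setting changed 13, with some in both sets. The 13 include calls between genotypes in the fit with a replicate block within genotype, which compares levels of replicate 1 only. The threshold of 0.01 is not part of these counts. On unscaled totals the count of the 10 that fell was 0 in WT and 1 in KO cells, the count of feedback genes that fell in WT cells was 1, and Vegfd in KO cells was at 0.022 in place of -0.13. At an adjusted p under 0.01, 1 of the 10 was lower in KO than WT control cells. Of the other FGF family genes, 3 rose in WT and 4 in KO cells at that threshold. Leaving out 1 library gave 1 to 2 of the 10 lower in KO than WT control cells. It gave 0 to 1 other FGF family genes that fell in WT cells and 0 to 3 with a higher interaction. The log2 fold change then lay between -0.0886 and 0.0885 for Pdgfa in KO against WT control cells. For Vegfd in KO against WT senescent cells it lay between -0.292 and 0.0146. The causes were not tested.

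Over all genes, libraries with the same replicate number did not deviate together (correlations of -0.125 to 0.127 between groups). With 3 libraries per group, these correlations cannot settle whether libraries of the same number shared a culture or batch. With a replicate block within genotype, KO and WT were compared at the level of replicate 1 only. That fit is therefore not a check of the calls between genotypes. In it, 0 of the 10 were lower in KO than WT control cells, and 2 were higher in KO than WT senescent cells. Calls of the main fit that did not pass in it were those of Fgf2, Vegfa and Pdgfra in control cells (adjusted p of 0.395, 0.233 and 0.374). In senescent cells they were those of Fgf2, Fgf7, Vegfc, Pdgfa and Pdgfrb (adjusted p of 0.0506 to 0.4). The block does bear on the response within a genotype, where the call of Pdgfa in WT cells was lost (adjusted p = 0.0678). Calls near the threshold rest on 3 libraries per group. Levels under about 1 CPM rest on few counts.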
